A study of Homo sapiens with 6 samples.

Results

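The 10 genes of the pyroptosis pathway described here were taken by name from the gene expression profiles of ARPE-19 cells with and without POLDIP2: the inflammatory caspases CASP1, CASP4 and CASP5, the caspase-like regulator CARD16, the adaptor PYCARD, the sensors NLRP1, NLRP3 and AIM2, and the gasdermins GSDMD and GSDME. All 10 were among the 37902 genes listed. ARPE-19 cells are an established human line of retinal pigment epithelium (RPE) origin. The WT group was the parental line (genotype wildtype in the labels) and the POLDIP2 KO group was a line transduced with a lentivirus carrying SpCas9 and an sgRNA against the POLDIP2 coding sequence, selected with puromycin and expanded. Both lines were sampled at day 3 in regular maintenance medium, and 3 biological replicates of each gave 6 libraries of polyadenylated RNA. No single-cell cloning and no transduction of the WT line are described, so loss of POLDIP2 and the effects of transduction, Cas9 and puromycin cannot be told apart.

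Pyroptosis is a lytic form of cell death that is started by protein complexes called inflammasomes. A sensor such as NLRP1, NLRP3 or AIM2 detects a danger or microbial signal and recruits PYCARD, which gathers the protease encoded by CASP1. CASP4 and CASP5 encode caspases that bind bacterial lipopolysaccharide in the cytosol directly. The active caspases cut GSDMD, whose released end forms pores in the plasma membrane, and CASP1 also matures the cytokines made from IL1B and IL18. GSDME is a related pore-forming protein that is cut by an apoptotic caspase. In the RPE this pathway has been studied in relation to age-related macular degeneration.

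In POLDIP2 KO the 2 detected inflammatory caspase genes, CASP1 and CASP4, were higher in every library than in any WT library, with mean levels 3.96 times and 2.93 times those of WT. The adaptor PYCARD, the sensor NLRP1 and the pore genes GSDMD and GSDME had overlapping libraries. CASP5, CARD16, NLRP3 and AIM2 were not detected above 3 reads in any of the 6 libraries. None of the 10 passed the limma test over all genes, which called 0.17% of those tested. DESeq2 called CASP1 and CASP4 higher, as it did 0.756% of all tested genes. The study itself named CASP1 and CASP4 among the genes raised in these libraries, so their direction is not independent evidence.

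The DNA upstream of the start shows how these genes differ in sequence. The set of RefSeq promoters (GRCh38.p14) used here held 6 of the 10 genes, CASP4, CASP5, PYCARD, NLRP3, AIM2 and GSDME. The 250 bases before the RefSeq start were examined, a start that is also that of the canonical GENCODE transcript in all 6. Other GENCODE transcripts start further out, by 792 bases in CASP4, 690 in PYCARD, 17 in NLRP3, 111077 in AIM2 and 476 in GSDME, so these windows lie partly or wholly inside the gene spans given further on, and only that of CASP5 lies wholly before its gene. Exons of such transcripts cover 154 of the 250 bases in CASP4, 250 in PYCARD, 17 in NLRP3 and 19 in GSDME. The longest stretch free of exons is printed for CASP4, which was detected, with the stretch of the undetected CASP5 that aligns to it, and for GSDME, which had the highest level per kilobase. All 3 are read from the minus strand, 5' to 3', at chr11:104968729-104968824 for CASP4, chr11:105023342-105023418 for CASP5 and chr7:24757476-24757706 for GSDME. Capitals mark runs of at least 8 identical bases between CASP4 and CASP5, and in GSDME they mark CG dinucleotides.
CASP4: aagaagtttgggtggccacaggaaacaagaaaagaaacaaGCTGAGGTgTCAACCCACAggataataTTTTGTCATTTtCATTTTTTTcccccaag
CASP5: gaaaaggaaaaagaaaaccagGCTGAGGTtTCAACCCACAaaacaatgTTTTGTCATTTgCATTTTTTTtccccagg
GSDME: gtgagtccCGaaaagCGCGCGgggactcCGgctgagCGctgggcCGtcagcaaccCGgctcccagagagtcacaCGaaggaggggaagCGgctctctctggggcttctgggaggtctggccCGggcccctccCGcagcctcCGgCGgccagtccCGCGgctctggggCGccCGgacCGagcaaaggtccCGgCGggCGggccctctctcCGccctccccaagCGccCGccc

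The capitals cover 38 of the 96 bases printed for CASP4 and 38 of the 77 for CASP5. Aligned over all 250 bases, gaps counted, the CASP4 and CASP5 windows were 66.1% identical, and the other 14 pairs of windows among the 6 genes were 40.1% to 52.8% identical. CASP4 held 2 CG dinucleotides, CASP5 0, NLRP3 3 and AIM2 2, whereas PYCARD held 16 and GSDME 28, against a median of 11 over 35116 promoters of the same length. The GC content ran from 38.0% in CASP4 to 76.4% in GSDME, and the median promoter had 58.0%.

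Motifs of 5 kinds were searched on both strands of these 250 bases. The core of the interferon-stimulated response element, present in 3.02% of all promoters, was found in CASP5 and AIM2, and the STAT motif TTCNNNGAA (6.57% of promoters) in CASP5. The letters TATAAA (10.7% of promoters) were found in NLRP3. The NF-kB motif (5.21% of promoters) and the E-box CACGTG (6.34%) matched in none of the 6. CASP4, the one detected gene among the inflammatory caspases with an entry, held none of the 5 motifs. These are matches of letters and no measure of binding.

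Each library held 31532797 to 45795509 recovered reads, and 3 reads corresponded to 2.44 to 3.69 normalised counts, which was taken as the detection floor. The targeted gene POLDIP2 fell from 3919 to 4827 normalised counts in WT to 1063 to 1248 in POLDIP2 KO, with a log2 fold change of -1.97 and a limma adjusted p value of 0.00961 (0.0202 to 0.0886 with 1 library left out, above 0.05 without replicate 2 or 3 of either line), so each library followed its label. Of 10 RPE markers, RPE65 was listed at 0 in all libraries, TYR did not pass 3 reads, and 0 of the 8 that could be tested were called. Leukocytes also express inflammasome genes, and of 12 leukocyte markers AIF1, TYROBP, CD163 and CD3E were at 0 in all libraries. The summed level of the 12 was 1767 to 2284 normalised counts in WT and 1902 to 2192 in POLDIP2 KO, and most of it was CD68, a lysosomal gene that epithelial cells also express. Without CD68 the sum was 82.5 to 96.3 in WT and 45.5 to 60.6 in POLDIP2 KO. The means of CSF1R (29.3 in WT and 10.5 in POLDIP2 KO), ITGAM (23.2 and 9.49) and LYZ (24.5 and 19.0) were lower in POLDIP2 KO, and those of CD14 (1.70 and 4.39) and PTPRC (0 and 3.81) were higher. The part of leukocyte RNA in the pyroptosis genes was not tested. Replicate 1 stood out for the pyroptosis genes, as the highest library of both lines for 5 of the 6 that could be tested, all but PYCARD, against 22.1% of all tested genes.

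**Figure D1:**
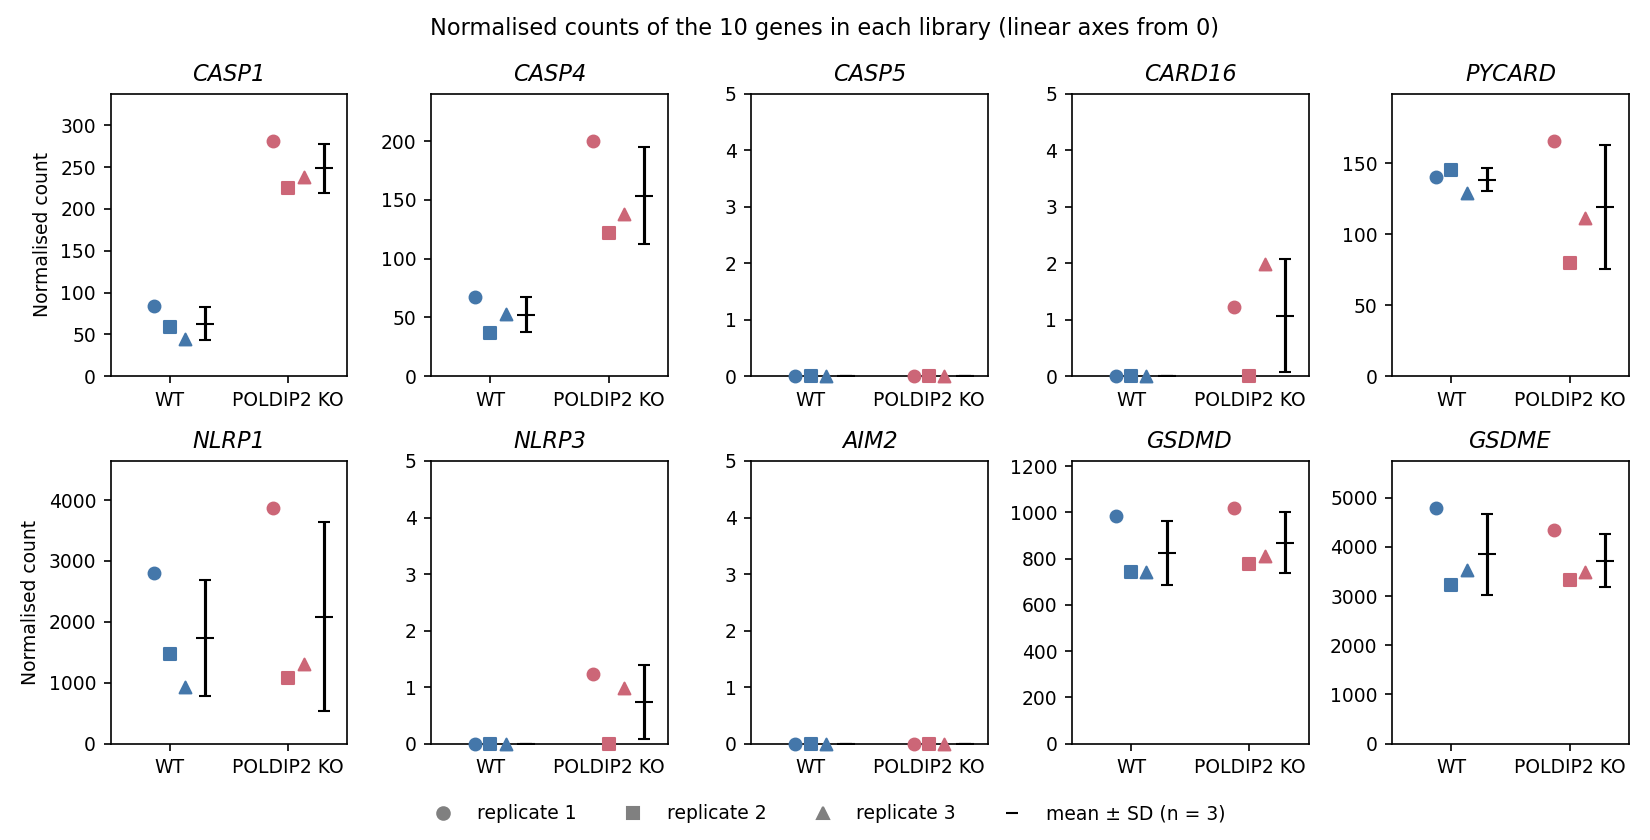
Normalised counts of the 10 genes in each of the 6 libraries, on linear axes that start at 0 and differ in range between genes. Symbols stand for the replicate number, and bars show the mean ± SD of 3 libraries. CASP1 (44.9 to 84.1 in WT, 225 to 282 in POLDIP2 KO) and CASP4 are separated between the lines, while CASP5 and AIM2 lie at 0 throughout.

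CASP1 encodes the protease that executes inflammasome signals. Its normalised counts were 84.1, 59.2 and 44.9 in replicates 1, 2 and 3 of WT, and 282, 225 and 238 in the same replicates of POLDIP2 KO. The lowest POLDIP2 KO library was thus well above the highest WT library. The means were 62.7 ± 19.8 and 248.5 ± 29.5 (SD, n = 3 libraries each), which gave a log2 fold change of 2.01 with a standard error of 0.28 and a 95% confidence interval of 1.35 to 2.67. The limma p value was 0.000176 before and 0.072 after adjustment over the 14684 genes tested, and CASP1 ranked 35 by p value. The exact permutation test gave p = 0.1, two-sided, the smallest value that 3 libraries against 3 can reach. Between same-numbered libraries the log2 ratio was 1.73, 1.91 and 2.38, so each pair showed the difference. The recovered reads behind these values were 89, 59 and 43 in WT and 229, 277 and 240 in POLDIP2 KO, so the WT level rests on few reads. In bulk RNA, fewer cells with a transcript and less of it per cell cannot be told apart.

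CASP4 encodes the cytosolic lipopolysaccharide-binding caspase. It had 67.1, 37.1 and 53.3 normalised counts in replicates 1, 2 and 3 of WT, and 201, 122 and 138 in the POLDIP2 KO replicates. The libraries of the lines did not overlap, although POLDIP2 KO replicate 1 stood above the other two. The means were 52.5 ± 15 and 154 ± 41.5 (SD, n = 3 libraries each). This gave a log2 fold change of 1.54 with a standard error of 0.32 and an interval of 0.78 to 2.30. The limma p value was 0.00201 before and 0.21 after adjustment, and CASP4 ranked 139 by p value. In the exact permutation test p was again 0.1, and the log2 ratios of the pairs were 1.57, 1.69 and 1.36.

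The verdict on CASP1 and CASP4 depended on the tool and not on the size of the difference. By edgeR on the recovered reads the adjusted p values were 0.111 for CASP1 and 0.274 for CASP4, and by DESeq2 on the same reads 4.84e-07 and 0.00727. When same-numbered libraries were paired through a replicate block, limma gave 0.0586 and 0.0839 and DESeq2 gave 1.37e-06 and 0.00278. The log2 fold change of CASP1 was 1.98 by either read-based tool, and that of CASP4 was 1.54. Over the limma alternatives with all libraries the adjusted p value of CASP1 ranged from 0.0586 to 0.0889 and that of CASP4 from 0.0839 to 0.273. When the libraries were left out singly, the log2 fold change stayed between 1.8 and 2.24 for CASP1 and between 1.31 and 1.73 for CASP4, with limma adjusted p values of 0.0857 to 0.28 and 0.31 to 0.579.

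Counted over the 10 genes, 6 had a mean of at least 10 normalised counts and were tested, and the other 4 were at the floor. With limma 0 of the 6 were called, which required an adjusted p value below 0.05 together with more than a 1.5-fold change, where 0.17% of all tested genes were called in either direction and 0.0817% were called higher. At an unadjusted p value under 0.05, 2 of the 6 were higher, CASP1 and CASP4, where 3.0% of all genes were. The edgeR test called 0 of the 6 (0.116% of all genes), limma with the replicate block 0 (0.204%) and edgeR with the block 0 (0.0341%), each with the same 2 at an unadjusted p value under 0.05. DESeq2 called 2, both higher, where it called 0.756% of all genes higher, and with the block again 2, where it called 1.25% higher. The same 2 were the genes whose POLDIP2 KO libraries all lay above the WT libraries, a pattern held by 5.46% of all genes tested. The median log2 fold change of the 6 was 0.12 and that of all tested genes was -0.00029.

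**Figure D2:**
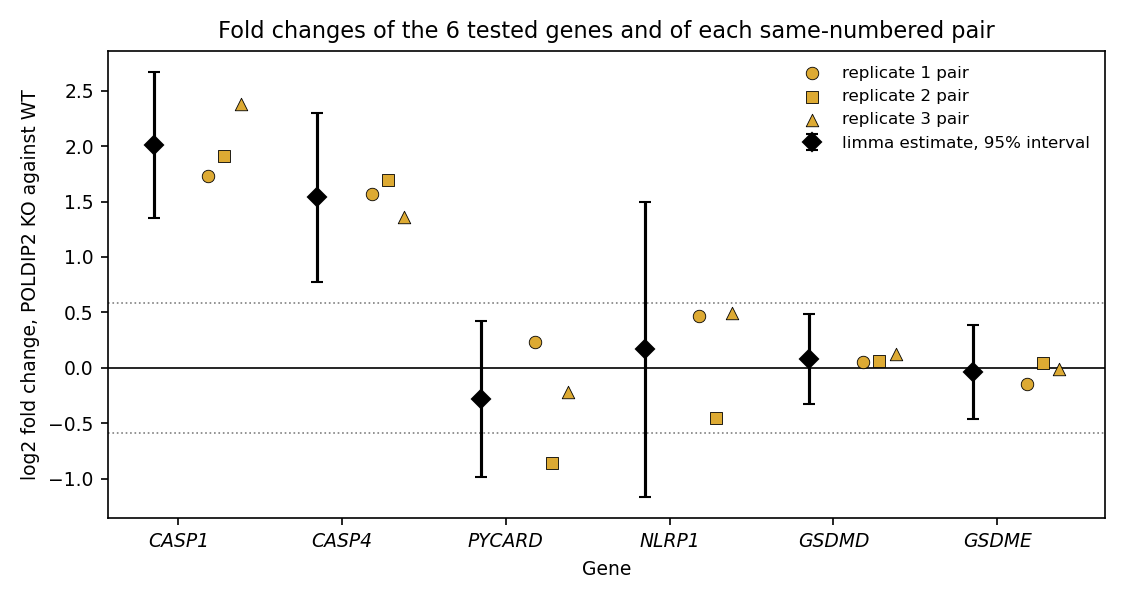
Log2 fold change of POLDIP2 KO against WT (vertical axis) for the 6 genes that could be tested. Diamonds are limma estimates with 95% confidence intervals, smaller symbols are the ratios of same-numbered libraries, and dotted lines mark a fold change of 1.5. The intervals of CASP1 (1.35 to 2.67) and CASP4 (0.78 to 2.30) lie above the upper dotted line, those of GSDMD and GSDME lie between the lines, and those of PYCARD and NLRP1 cross at least 1 of them.

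CASP5, the close paralog of CASP4, was listed at 0 in all 6 libraries. A floor of 3 reads allows it up to 1.64 to 2.48 normalised counts per kilobase, depending on the library. CARD16 encodes a protein with a caspase recruitment domain that resembles that of the CASP1 product and regulates it. CARD16 had 0 reads in WT and 1, 0 and 2 reads in POLDIP2 KO replicates 1, 2 and 3, all at or under the floor, so no fold change is given. The part of CASP1 that CARD16 repeats could in principle divert reads: 7.57% of the 31-base stretches of CASP1 transcripts also occur in CARD16, and 19.6% of those of CARD16 occur in CASP1. When the counts of CASP1 and CARD16 were summed, the log2 fold change was 2.01 and the limma adjusted p value 0.072. Between CASP4 and CASP5 the sharing was small, with 2.62% of CASP5 stretches found in CASP4.

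The 4 genes lie together on the minus strand of the long arm of chromosome 11 in GRCh38 (GENCODE release 44). CASP4 (ENSG00000196954) spans 104942866 to 104969366, CASP5 (ENSG00000137757) 104994235 to 105023168, CASP1 (ENSG00000137752) 105025397 to 105035250 and CARD16 (ENSG00000204397) 105041326 to 105101431. CASP1 is thus 2.23 kb from the undetected CASP5 and 6.08 kb from CARD16, and CASP5 is 24.9 kb from CASP4. Detected and undetected genes alternate along the cluster. Beyond it, CASP12, an inflammatory caspase gene that is mostly inactive in humans, was listed at 0 in every library, and CARD18, which encodes an inhibitor of the CASP1 product, had no more than 0.993 normalised counts in any.

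To see whether the difference extended along the chromosome, 10 neighbours of the cluster were examined, and 7 of them could be tested. With limma 0 of the 7 were called, and 3 were higher at an unadjusted p value under 0.05 (PDGFD, DYNC2H1 and GUCY1A2), against 3% of all tested genes. PDGFD, a growth factor gene, had 213.5, 199 and 189 normalised counts in WT and 419, 315 and 435 in POLDIP2 KO. Its libraries did not overlap, with a log2 fold change of 0.94 (adjusted p = 0.186 by limma, DESeq2 adjusted p = 0.00224). DYNC2H1, a motor protein gene of cilia, and GUCY1A2, a guanylate cyclase subunit gene, had log2 fold changes of 0.30 and 0.29 (adjusted p = 0.693 and 0.759 by limma). KBTBD3, MSANTD4 and AASDHPPT, on the far side of CARD16, had 0.38, 0.10 and -0.0014 (adjusted p = 0.976, 0.9998 and 0.9998 by limma). The median of the 7 was 0.29. Their interval limits all lay under the CASP1 estimate of 2.01. The PDGFD interval of 0.51 to 1.38 overlapped that of CASP4 (0.78 to 2.30) and, slightly, that of CASP1 (1.35 to 2.67).

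**Figure D3:**
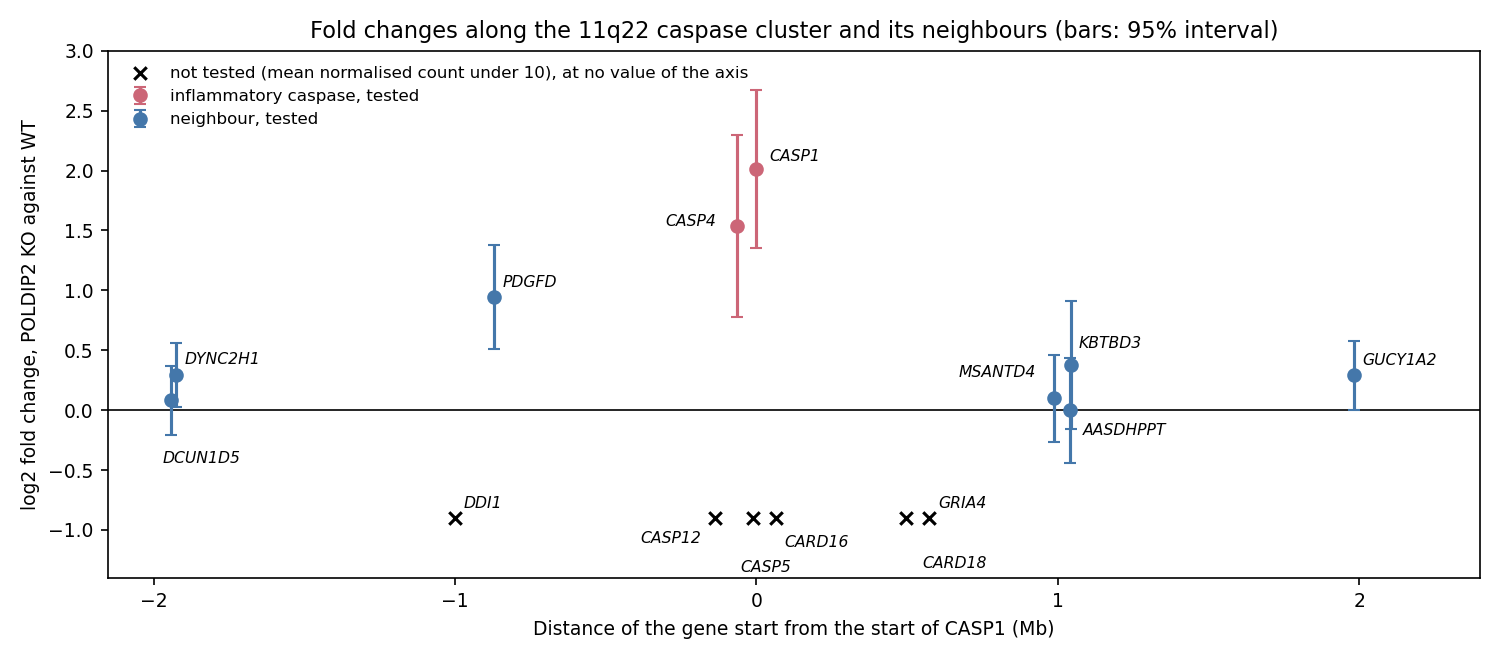
Log2 fold change (vertical axis) against the distance of each gene start from the CASP1 start in Mb (horizontal axis) for the caspase cluster and its neighbours, with 95% confidence intervals. Crosses mark genes with a mean under 10 normalised counts, which were not tested and have no value on the vertical axis. CASP1 (2.01) and CASP4 (1.54) stand above PDGFD (0.94), and the other neighbours lie between -0.0014 and 0.38.

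PYCARD (ENSG00000103490, chromosome 16, 31201486 to 31203450, minus strand) encodes the adaptor that joins sensors to the CASP1 product. It had 141, 145 and 129 normalised counts in replicates 1, 2 and 3 of WT, and 166, 79.8 and 111 in the POLDIP2 KO replicates. The WT libraries were close together and the POLDIP2 KO libraries lay on both sides of them. The means were 139 ± 8.23 and 119 ± 43.7 (SD, n = 3 libraries each), with a log2 fold change of -0.28 and an interval of -0.98 to 0.42 (adjusted p = 0.9998 by limma, exact permutation p = 0.5, two-sided). A decrease of more than 1.5-fold lies within this interval. The log2 ratios of the pairs were 0.24, -0.86 and -0.22, so the pairs did not share a direction.

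NLRP1 (ENSG00000091592, chromosome 17, 5499415 to 5619424, minus strand) was the one inflammasome sensor of the 3 with reads above the floor. It encodes a sensor that is known from human epithelial cells such as keratinocytes and is held inactive by DPP9. Its normalised counts were 2799, 1473 and 933 in replicates 1, 2 and 3 of WT, and 3868, 1074 and 1315 in the POLDIP2 KO replicates. Replicate 1 was far above the other two in both lines, and the lines overlapped. The means were 1735 ± 960.1 and 2085 ± 1548 (SD, n = 3 libraries each), giving a log2 fold change of 0.17 whose interval ran from -1.16 to 1.5 (adjusted p = 0.9998 by limma, exact permutation p = 0.7, two-sided). The spread within a line was the widest of the 6 tested genes. With the replicate block the standard error fell from 0.56 to 0.21 and the interval narrowed to -0.36 to 0.70, which still allows a change of more than 1.5-fold. The direction rested on single libraries, since the log2 fold change was -0.40 without POLDIP2 KO replicate 1, -0.21 without WT replicate 3 and 0.59 at the highest. Part of its transcript sequence is not its own, since 9.56% of the 31-base stretches of NLRP1 occur in other genes.

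NLRP3 and AIM2 encode the sensors of membrane and ionic disturbance and of cytosolic DNA. NLRP3 (ENSG00000162711, chromosome 1, 247416156 to 247449108, plus strand) had 0 reads in every WT library and 1, 0 and 1 in the POLDIP2 KO libraries. AIM2 (ENSG00000163568, chromosome 1, 159061599 to 159187843, minus strand) had 0 reads in all 6 libraries. The floor of 3 reads allows up to 0.576 to 0.87 normalised counts per kilobase for NLRP3 and 0.617 to 0.933 for AIM2. At this depth NLRP3 and AIM2 transcripts were not detectable in either line, which limits but does not exclude a lower level. For NLRP3, 65.7% of the 31-base stretches also occur in another annotated transcript, mostly an overlapping gene, so reads could have been divided between them.

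GSDMD (ENSG00000104518, chromosome 8, 143553207 to 143563062, plus strand) encodes the pore protein cut by the inflammatory caspases. It had 984, 743 and 742 normalised counts in replicates 1, 2 and 3 of WT, and 1019, 777 and 812 in the POLDIP2 KO replicates. The lines overlapped, and each POLDIP2 KO library was slightly above the WT library of the same number. The means were 823 ± 139 and 869 ± 131 (SD, n = 3 libraries each), with a log2 fold change of 0.08 and an interval of -0.33 to 0.49 (adjusted p = 0.9998 by limma, exact permutation p = 0.5, two-sided). The interval lies within the 1.5-fold limits of ±0.58 on the log2 scale, so a larger change of GSDMD was outside what these libraries allow at 95% confidence.

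GSDME (ENSG00000105928, chromosome 7, 24698355 to 24757940, minus strand), whose CG-rich upstream sequence is printed above, encodes the gasdermin that links apoptotic caspases to lysis. It had 4789, 3233 and 3530 normalised counts in replicates 1, 2 and 3 of WT, and 4334, 3336 and 3495 in the POLDIP2 KO replicates. The lines overlapped throughout, with means of 3851 ± 826 and 3722 ± 536 (SD, n = 3 libraries each). This gave a log2 fold change of -0.04 with an interval of -0.46 to 0.38 (adjusted p = 0.9998 by limma, exact permutation p = 0.8, two-sided), which also lies within the 1.5-fold limits. Only 0.149% of the 31-base stretches of GSDME occur in other genes.

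Since replicate 1 was so often the highest library, the comparison was repeated without it. When replicates 2 and 3 of each line were compared on their own, an alternative chosen after seeing the data, the log2 fold changes were 2.15 for CASP1 and 1.52 for CASP4 (adjusted p = 0.182 and 0.389 by limma). In the same fit they were -0.54 for PYCARD, 0.02 for NLRP1, 0.10 for GSDMD and 0.02 for GSDME. This fit called 4 of all 14684 genes tested and 0 of the 6, so it says little about the 6. The log2 ratio was above 0 in all 3 pairs for CASP1, CASP4 and GSDMD, 3 of the 6, where 17.0% of all genes had this pattern.

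Levels of different genes were compared as normalised counts per kilobase of the longest transcript, since longer transcripts yield more reads. In WT the order was GSDME at 921 ± 197, GSDMD at 238 ± 40.3, NLRP1 at 224 ± 124, PYCARD at 122 ± 7.24, CASP1 at 25 ± 7.91 and CASP4 at 11.1 ± 3.16 (SD, n = 3 libraries each). GSDME was above all others in every WT library, GSDMD overlapped with NLRP1 and NLRP1 with PYCARD, and the caspases were below PYCARD without overlap. In POLDIP2 KO the order was GSDME at 889.9 ± 128, NLRP1 at 269 ± 199.98, GSDMD at 251 ± 37.7, PYCARD at 105 ± 38.4, CASP1 at 99.2 ± 11.8 and CASP4 at 32.4 ± 8.74.

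GSDMD and NLRP1, which overlapped, changed places between the lines, and CASP1 kept its rank but came closer to PYCARD. In WT its libraries ran from 17.9 to 33.6 normalised counts per kilobase and those of PYCARD from 114 to 128. In POLDIP2 KO CASP1 ran from 90.0 to 112, inside the range of PYCARD from 70.2 to 146. CASP4 remained the lowest of the 6 in both lines, and its WT range of 7.82 to 14.1 did not reach that of CASP1. Dividing by the union of exons in place of the longest transcript put GSDMD (171) above NLRP1 (103) in POLDIP2 KO and left the rest of the order as it was.

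**Figure D4:**
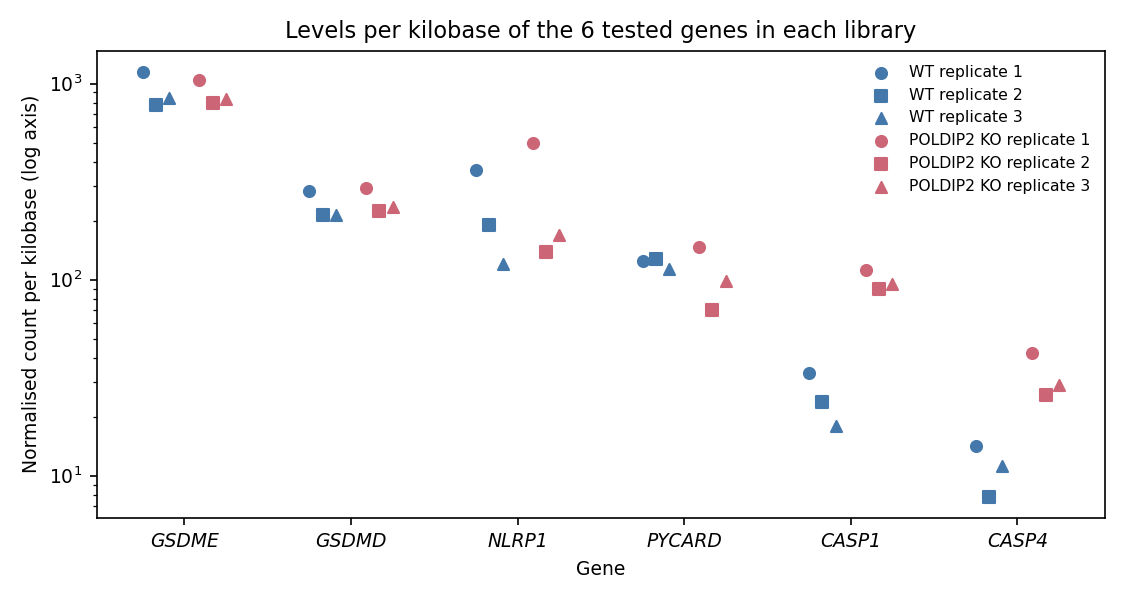
Normalised counts per kilobase of the longest transcript (log axis) for the 6 detected genes in each library, ordered by their WT mean. Symbols give the replicate number and colours the line. CASP1 in POLDIP2 KO (90.0 to 112) reaches the level of PYCARD, while in WT it lies between 17.9 and 33.6.

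The profile of CASP1 over the 6 libraries was compared with that of every tested gene as the root mean square difference of centred log2 values. The closest 5 genes were SEPTIN4 (0.162), which encodes a septin, DIRAS1 (0.215), which encodes a small GTPase, ALPK2 (0.259), which encodes a kinase, PTGFR (0.297), which encodes a prostaglandin receptor, and MMP2 (0.301), which encodes a matrix metalloproteinase. CASP4 was 14 in this order, at 0.372. SEPTIN4 was at 119, 118 and 76.2 normalised counts in WT and at 533, 427 and 419 in POLDIP2 KO. The 5 genes were picked for their likeness to CASP1 in these same libraries, so a shared difference between lines follows from the choice. Of the 5, SEPTIN4 and ALPK2 were called by limma (adjusted p = 0.0348 and 0.0451), as were 0.17% of all tested genes. This count also depends on the choice. The likeness describes 6 libraries only.

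The rest of the pathway and the 10 neighbours of the cluster, which were chosen by position and not by function, made up 9 lists. Of their 84 genes 79 were found by name and 59 could be tested. With limma 1 of the 59 was called higher, IL1B, and 0 were called lower. At an unadjusted p value under 0.05, 11 were higher, where 3% of all tested genes were, and 1 was lower. Of these 11, 3 were neighbours of the cluster. DESeq2 called 4 higher (IL1B, TLR4, BIRC3 and the neighbour PDGFD), against 0.756% of all tested genes, and 0 lower. The POLDIP2 KO libraries lay above all WT libraries for 16 of the 59, including 3 neighbours, and below them for 0. Among the 14684 tested, 802 (5.46%) lay above and 799 below. The median log2 fold change of the 59 was 0.13.

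**Figure D5:**
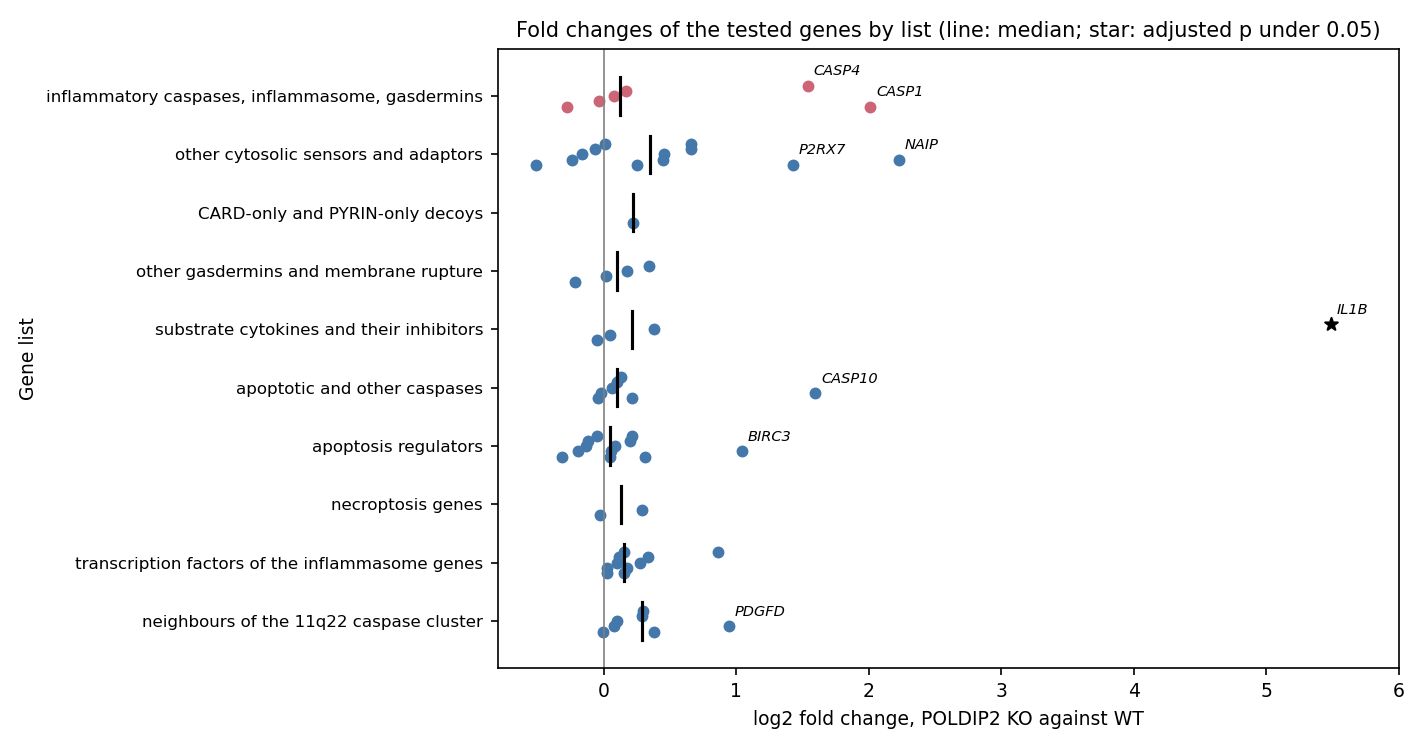
Log2 fold change of POLDIP2 KO against WT (horizontal axis) for the tested genes of each list (rows). Dots are genes, upright lines are list medians and the star marks the gene with a limma adjusted p value under 0.05, IL1B at 5.49. The list medians lie between 0.05 and 0.35, and CASP1 and CASP4 stand apart from the other genes of their row.

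Among the cytokines that CASP1 matures, IL1B rose and IL18 did not pass the test. IL1B, which encodes the inflammatory cytokine released through gasdermin pores, had 5.67, 10.03 and 4.18 normalised counts in replicates 1, 2 and 3 of WT, and 351, 485 and 199.6 in the POLDIP2 KO replicates. It passed from a few reads to a level well above the floor in each pair. Its log2 fold change was 5.49 (adjusted p = 0.0204 by limma, edgeR 0.0287), and with any 1 of the 6 libraries left out the limma adjusted p value was 0.0541 to 0.0994. IL18, which encodes a cytokine made without induction in many epithelia, was already at 6012, 4072 and 3611 normalised counts in WT and was at 7251, 4986 and 5349 in POLDIP2 KO, a log2 fold change of 0.38 (adjusted p = 0.976 by limma). IL18 was higher in each same-numbered pair, and DESeq2 with the replicate block gave it an adjusted p value of 0.0311 without the fold change passing 1.5. The inhibitors IL18BP and IL1RN had log2 fold changes of 0.05 and -0.05 (adjusted p = 0.9998 for both by limma), and of the 4 tested genes of this list 1 was called.

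Of the other sensors and adaptors, 12 could be tested and limma called 0. At an unadjusted p value under 0.05, 4 were higher, where 3% of all tested genes were, and 1 was lower. TLR4, the receptor for lipopolysaccharide at the cell surface, had 487.5, 566 and 488 normalised counts in WT and 798, 845 and 784 in POLDIP2 KO. The lines did not overlap, and the log2 fold change was 0.66 (adjusted p = 0.181 by limma, DESeq2 adjusted p = 0.00156). NAIP, a sensor of bacterial flagellin, had 30.2, 26.1 and 7.31 normalised counts in WT and 138, 46.4 and 108 in POLDIP2 KO, without overlap, and a log2 fold change of 2.23 (adjusted p = 0.427 by limma). Of the 31-base stretches of its transcripts 45.5% also occur in other genes, most of them in the pseudogene NAIPP2, so its counts are uncertain. P2RX7, the ATP-gated channel that triggers NLRP3, had 1.43 (adjusted p = 0.558 by limma), with 130.1 normalised counts in POLDIP2 KO replicate 3 against 46.7 and 52.9 in the other two. DPP9, the peptidase that restrains NLRP1, was at a mean of 6951 in WT and 4871 in POLDIP2 KO, a log2 fold change of -0.51 (adjusted p = 0.556 by limma). Its lines overlapped, but DPP9 was lower in POLDIP2 KO in each same-numbered pair, with log2 ratios of -0.36, -0.43 and -0.75. With the replicate block its adjusted p value was 0.154 by limma and 0.00205 by DESeq2, without the fold change passing 1.5.

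Of the decoy proteins that consist of a recruitment domain alone or resemble one, CARD6 could be tested, with a log2 fold change of 0.22 (adjusted p = 0.947 by limma), and PYDC1 and PYDC2 were at 0. Of the other gasdermins and the genes of membrane rupture and repair, 4 could be tested and limma called 0, with 0 at an unadjusted p value under 0.05 and 0 by DESeq2. GSDMB, another gasdermin, had a log2 fold change of 0.34 and NINJ1, whose product completes membrane rupture, of 0.18 (adjusted p = 0.805 and 0.9998 by limma). Both had POLDIP2 KO libraries that all lay above the WT libraries, a pattern held by 5.46% of all genes tested. PJVK and CHMP4B, the latter a subunit of the membrane repair machinery, had -0.22 and 0.01 (adjusted p = 0.9998 for both by limma).

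Of the apoptotic and other caspases 7 could be tested, and limma and DESeq2 called 0. By limma 1 was higher at an unadjusted p value under 0.05, where 3% of all tested genes were. That gene was CASP10, an initiator caspase of death receptors, with 23.6, 23.1 and 11.5 normalised counts in WT and 46.7, 68.4 and 60.6 in POLDIP2 KO. Its libraries did not overlap and its log2 fold change was 1.59 (adjusted p = 0.313 by limma, DESeq2 0.097). CASP2 and CASP6 had log2 fold changes of 0.10 and 0.13 (adjusted p = 0.9998 by limma for both). The difference between CASP1 and these genes was not tested.

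Of 12 apoptosis regulators limma called 0, with 2 higher at an unadjusted p value under 0.05, where 3% of all tested genes were. BIRC3, an inhibitor of apoptosis that NF-kB induces, had 220.1, 255 and 423 normalised counts in WT and 610.2, 625 and 546 in POLDIP2 KO. The log2 fold change was 1.04 (adjusted p = 0.291 by limma, DESeq2 adjusted p = 0.0336), and BIRC2, its paralog, had 0.31 (adjusted p = 0.61 by limma). The survival gene MCL1 had 0.21 and the apoptosome gene APAF1 -0.32 (adjusted p = 0.802 and 0.984 by limma). In the necroptosis list, MLKL and RIPK1 could be tested, with log2 fold changes of 0.29 and -0.03 (adjusted p = 0.9998 for both by limma), and 0 had an unadjusted p value under 0.05 by limma.

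Transcription factors that are known to act on inflammasome genes were the last list, and 10 of them could be tested. All 10 had a log2 fold change above 0, as had 7334 of the 14684 genes tested, but limma called 0 and none had an unadjusted p value under 0.05. IRF1, the interferon-induced factor, was at 272, 619 and 467 normalised counts in replicates 1, 2 and 3 of WT, and at 486, 1142 and 849 in the POLDIP2 KO replicates. The lines overlapped, and in both of them replicate 1 was the lowest and replicate 2 the highest. The log2 ratios of the same-numbered pairs were 0.83, 0.88 and 0.86. Over all tested genes, pairing by number was distinct for replicate 1 only. For IRF1 the limma adjusted p value was 0.83, or 0.0725 with the replicate block, and that of DESeq2 was 0.49, or 2.47e-05 with the block. RELA and NFKB1, subunits of NF-kB, had log2 fold changes of 0.33 and 0.12, and STAT2 had 0.28 (adjusted p = 0.933 by limma, 0.9998 and 0.9998).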

How the data were processed

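Polyadenylated RNA of WT ARPE-19 and POLDIP2 KO cells, 3 biological replicates each at day 3, was sequenced in stranded 100 bp single-end libraries. The labels do not say how the replicates were separated, so p values measure the spread between these libraries. The deposited signal is the normalised count that the authors made with Salmon 1.8, tximport on GRCh38 and the size factors of DESeq2 1.34.0. The annotation release is not given in the sources used here. Of the 37902 genes listed, 34152 have a symbol in GENCODE release 44, and 0 columns were left out. Dividing each column by its step recovered counts of reads, with 100% of the values whole within a tolerance of 0.001. For the columns of WT replicate 2 and of the third POLDIP2 KO library, whose steps are near 1, this check is weak.

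The lines were compared in R 4.3.3 with limma 3.58.1, fitted to log2(normalised count + 1) of the 14684 genes whose mean was at least 10, using eBayes with trend and Benjamini-Hochberg adjustment over all of them. Adding 1 understates the fold change of low genes. A call required an adjusted p value below 0.05 together with more than a 1.5-fold change. As alternatives edgeR 4.0.16 and DESeq2 1.42.0 were run on the recovered reads, next to other pseudocounts, filters, scalings and eBayes settings, the replicate number as a block, and each library left out. Replicates 2 and 3 alone were compared after seeing the data. The steps were tested on simulated data. Whether the numbers pair the libraries was examined by correlation after centring within each line. Same-numbered libraries 1, 2 and 3 correlated at 0.315, 0.137 and 0.129 over the 14684 genes, each past the limit of 0.1. Libraries with different numbers gave -0.259 to 0.147, and WT replicate 3 with POLDIP2 KO replicate 2 (0.147) also passed that limit. Pairing by number was thus distinct for replicate 1 only, and the fits with a replicate block and the same-numbered ratios assume it for all 3.

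Levels per kilobase used the longest GENCODE transcript. Promoter sequences came from RefSeq (GRCh38.p14) and were aligned with Biopython 1.88. CASP1, CARD16, NLRP1 and GSDMD had no entry in the promoter set used.

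The 10 genes and the lists were chosen with earlier results of these data known. The text names the 10 genes, POLDIP2, up to 4 genes with the smallest limma p value of each list, and the 5 genes nearest to CASP1. Some list genes are counted with their lists but are not reported here by name. Other names were chosen after their values were seen.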

Additional observations from a re-analysis of the deposited data

How the results depend on the processing

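Of the 14684 genes tested, limma called 25. It called 16 with a mean of at least 50, DESeq2 called 248, DESeq2 with the replicate block 392, edgeR with the replicate block 5, and limma on replicates 2 and 3 alone, chosen after seeing the data, 4. With each library left out the number was 0 to 5. Of the 10 genes 0 were called by limma, 2 by DESeq2 and 2 by DESeq2 with the replicate block, and 0 with any library left out. Of the pathway lists 1 gene was called by limma, 4 by DESeq2, 6 by DESeq2 with the replicate block, 0 on replicates 2 and 3 alone and 0 with any library left out. Apart from the IRF1 values and the counts given here, the replicate block changed no call of the 10 genes, of POLDIP2 or of a named pathway gene within the same tool. Among the 10 genes and the up to 4 of each list with the smallest limma p value, the following log2 fold changes turned in sign. All had limma adjusted p values above 0.05. With quantile normalisation CHMP4B was -0.0056 and IL1RN 0.0072. On replicates 2 and 3 alone GSDME was 0.015, PJVK 0.12, IL18BP -0.23 and IL1RN 0.015. With each library left out NLRP1 ran from -0.40 to 0.59, GSDMD from -0.039 to 0.22, GSDME from -0.15 to 0.13, PJVK from -0.44 to 0.013, CHMP4B from -0.064 to 0.098, IL18BP from -0.10 to 0.34, IL1RN from -0.39 to 0.41, CASP6 from -0.011 to 0.24 and RIPK1 from -0.16 to 0.054. AASDHPPT, outside those genes, ran from -0.17 to 0.12 with each library left out. The causes were not tested. CASP1, CASP4 and PYCARD kept their sign in all of these fits. Depth limits CASP5, CARD16, NLRP3 and AIM2, for which 3 reads or fewer cannot be told from 0.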

Other observations

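Among the gasdermins too low to test, GSDMA and GSDMC, chosen after their values were seen, lay higher in every POLDIP2 KO library. GSDMA, known from skin, had 3, 0 and 3 reads in WT replicates 1, 2 and 3 and 5, 8 and 6 in the POLDIP2 KO replicates. GSDMC had 2, 0 and 2 reads in WT and 7, 6 and 5 in POLDIP2 KO. With 8 reads or fewer per library these differences were not tested. The share of 5.46% of genes with this separation covers only the 14684 genes with a mean of at least 10. How often genes as low as GSDMA and GSDMC separate in this way was not counted. No pattern among the gasdermins is therefore drawn from them.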
